A study of Mus musculus with 12 samples.

Results

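The transient receptor potential melastatin (Trpm) family was examined in rhabdoid tumors that arose in mice after loss of Smarcb1, a core subunit of the SWI/SNF chromatin remodeling complex. Its members were taken by name, Trpm1 to Trpm8, which gave 8 of the 24060 gene rows. RNA of 12 whole tumors was sequenced after removal of ribosomal RNA. All tumors came from P0-CreC;Smarcb1 flox/flox mice, in which a Cre transgene under the promoter of the protein zero gene deletes both floxed Smarcb1 alleles in early neural crest cells and their descendants, so cells outside this lineage keep the gene. There were 4 retro-orbital, 3 cheek and 3 meninges tumors, and 1 tumor each of the vestibular nerve and the trigeminal nerve. No normal tissue and no tumor of another genotype was among the samples. The age of each mouse is not given in the sources used here, nor is it stated which tumors came from the same mouse. The titles of 3 pairs of tumors share their first part, namely cheek tumors 2 and 3, cheek tumor 1 with meninges tumor 1, and retro-orbital tumor 3 with the trigeminal nerve tumor. If that part names a mouse, these tumors are not independent. The p-values over tumors can then be too small or, where a pair joins 2 compared locations, too large.

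TRPM proteins are cation channels of the cell membrane. TRPM6 and TRPM7 carry a protein kinase fused to a channel for magnesium, calcium and other divalent ions. TRPM4 and TRPM5 are opened by intracellular calcium and pass sodium and potassium but hardly any calcium. TRPM2 is opened by ADP-ribose and is well known in leukocytes, TRPM3 and TRPM8 sense heat and cold in sensory neurons, and TRPM1 is known from melanocytes and from the ON bipolar cells of the retina. Trpm3 and Trpm1 also carry a microRNA gene in an intron.

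These hosted microRNAs are shown because they share a seed, the part of a microRNA that pairs with its targets. Mir204 lies within Trpm3 at chr19:22750605-22750672 (GRCm38, plus strand) and Mir211 within Trpm1 at chr7:64205806-64205911 (plus strand). Both run in the direction of their host and touch none of its annotated exons. The mature sequences are from RefSeq on GRCm38.p6, written 5′ to 3′ with the seed, bases 2 to 8, in capitals.
miR-204-5p: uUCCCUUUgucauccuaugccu
miR-211-5p: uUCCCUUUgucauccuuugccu
The sequences differ at 1 of 22 positions, as A17U counted from the 5′ end with miR-204-5p first.

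The values are RPKM, reads scaled to the length of the gene and to the reads of the tumor, so levels of different genes are compared per length. In a bulk tumor, fewer cells that express a gene and less RNA per cell cannot be told apart. Low RPKM values move in steps of 1 fragment, which gave back the number of fragments behind each value. Each tumor was scaled to between 13206168 fragments (cheek tumor 3) and 57128422 (retro-orbital tumor 3), with a median of 27929720. These are the totals behind the RPKM, and the reads per sample that the paper gives span a narrower fold range. Smarcb1 itself, the deleted gene, was read over its whole length at 1.70 to 6.31 RPKM, with 4.56 ± 1.27 (SD, n = 4) in retro-orbital, 3.82 ± 0.700 (n = 3) in cheek and 5.40 ± 0.817 (n = 3) in meninges tumors, 1.70 in the vestibular nerve and 2.94 in the trigeminal nerve tumor. Without tissue that keeps Smarcb1, these values cannot be set against an undeleted level. The fragments of cheek tumors 2 and 3 gave a chi-square of 68.2 per degree of freedom over 407 genes, so they are not 1 library deposited under 2 names, and both were kept. Cheek tumors 1 and 2 gave 315, and cheek tumor 1 with meninges tumor 1 gave 132. Retro-orbital tumor 3 with the trigeminal nerve tumor gave 191. This value grows with the number of fragments, cheek tumor 3 had the lowest total, and each pair had its own set of genes. The values therefore do not rank the pairs by likeness, nor do they show whether cheek tumors 2 and 3 arose independently.

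Trpm7 was the most abundant member in all 12 tumors, and Trpm4 was next in 11. The exception was meninges tumor 3, in which Trpm6 came second. By median RPKM the order was Trpm7 at 34.8, Trpm4 at 9.97, Trpm6 at 2.23, Trpm2 at 1.31, Trpm3 at 0.966, Trpm5 at 0.114, Trpm1 at 0.0603 and Trpm8 at 0.0107. The range of Trpm7 lay above that of Trpm4, and every other pair of neighbours in this order had ranges that overlapped. Trpm7 and Trpm4 were at 1 RPKM or above in all tumors, Trpm6 in 10, Trpm2 in 7 and Trpm3 in 6. Trpm1, Trpm5 and Trpm8 stayed below 1 RPKM in every tumor. The summed RPKM of the family ranged from 43.1 in meninges tumor 2 to 87.8 in the vestibular nerve tumor. Trpm7 made up between 39.8% and 76.6% of that sum (median 67.6%) and Trpm4 between 15.9% and 28.4%. Trpm3 reached 25.4% in the vestibular nerve tumor and Trpm6 23.8% in meninges tumor 3, against medians of 1.91% and 4.28%.

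**Figure D1:**
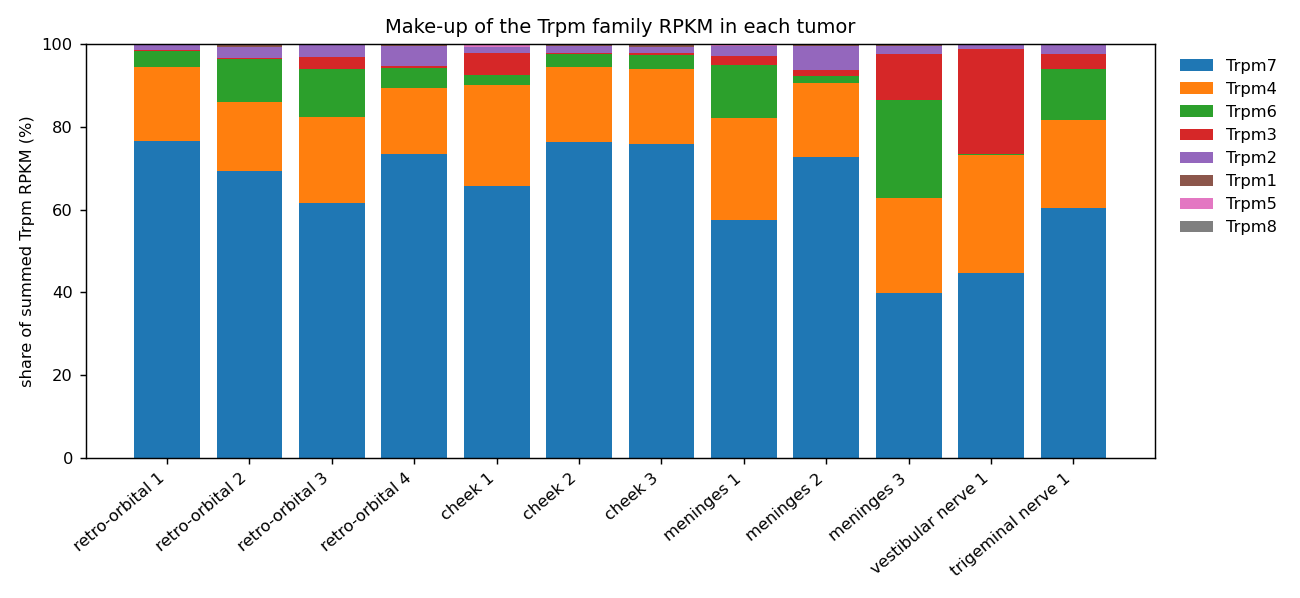
Share of the summed RPKM of Trpm1 to Trpm8 (vertical axis, percent) that each member took in each of the 12 tumors (1 bar per tumor). Trpm7 takes the largest share in every bar, between 39.8% and 76.6%, and the vestibular nerve tumor stands out by its Trpm3 and meninges tumor 3 by its Trpm6.

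Trpm7 (chr2:126791565-126876230, minus strand), the ubiquitous channel kinase needed for magnesium balance, was read at 38.0, 34.4, 32.6 and 39.6 RPKM in the retro-orbital tumors, at 39.8, 35.2 and 32.9 in the cheek tumors, at 32.4, 31.3 and 31.7 in the meninges tumors, at 39.3 in the vestibular nerve and at 38.4 in the trigeminal nerve tumor. All 3 meninges tumors were below every other tumor, by a small margin. These values rest on 3102 to 13307 fragments per tumor. The highest value was 1.27 times the lowest, and the coefficient of variation over the 12 tumors was 9.41%. Only 0.213% of the 15043 genes at 1 RPKM or above in at least 3 tumors varied less, and 0.605% of the 3470 genes whose median lay within 2-fold of that of Trpm7. The mean difference of log2(RPKM + 1) was -0.18 (95% confidence interval -0.49 to 0.14) for meninges minus retro-orbital tumors, -0.17 (-0.50 to 0.17) for meninges minus cheek and -0.0086 (-0.32 to 0.30) for cheek minus retro-orbital. The limma F test over the 3 locations gave an adjusted p of 0.663, and an exact permutation of the location labels of the 10 tumors gave p = 0.145 (two-sided). With ranks in place of log values the exact permutation p was 0.0457. Of the exact permutation p at 12 alternative settings only this was under 0.05. The highest was 0.302, and none was adjusted over the members.

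Trpm6 (chr19:18749983-18892511, plus strand), the kinase channel that takes up magnesium in kidney and gut epithelium, was the most variable of the magnesium channels. Its RPKM was 1.84, 5.12, 6.15 and 2.63 in retro-orbital tumors, 1.37, 1.43 and 1.41 in cheek tumors, 7.27, 0.695 and 19.0 in meninges tumors, 0.130 in the vestibular nerve and 7.84 in the trigeminal nerve tumor. The cheek tumors lay close together, with 1.40 ± 0.0304 (SD, n = 3), and below all retro-orbital tumors, while the meninges tumors held both the highest value of the 12 tumors and the second lowest. Fragments numbered from 24 in the vestibular nerve tumor to 2286. The coefficient of variation was 115%, and 88.8% of the 15043 genes varied less. The difference of log2(RPKM + 1) was 1.45 (95% confidence interval -0.27 to 3.16, adjusted p = 0.357, limma) for meninges minus cheek tumors and -0.94 (-2.54 to 0.66, adjusted p = 0.616) for cheek minus retro-orbital tumors. Over the 3 locations the adjusted p was 0.502 and the exact permutation p was 0.290. Without meninges tumor 2 the exact permutation p was 0.00873 and the difference of meninges from cheek tumors 2.42. Of the exact permutation p at 12 alternative settings only this was under 0.05. The highest was 0.441, and none was adjusted over the members. Without meninges tumor 3 the difference of meninges from retro-orbital tumors changed sign, from 0.51 to -0.30. With the shared title part as a random effect the adjusted p of Trpm6 was 0.0159 over locations and 0.00480 for meninges minus cheek, and that of Trpm7 was 0.0270 for meninges minus cheek. That fit rests on a correlation of 0.930 estimated from 2 pairs of tumors, and it called 4243 genes in the last comparison, where the fit without it called 7.

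Of 13 other genes for magnesium transport, 11 were at 1 RPKM or above in all 12 tumors. The highest median was that of Tusc3, a subunit of the oligosaccharyltransferase that has been linked to magnesium uptake, at 48.0 RPKM (31.6 to 70.9), and the lowest that of Cnnm1 at 0.224 (0.0675 to 1.12). None of the 12 that could be tested was called in any comparison of locations (limma), in which between 0.0203% and 0.0475% of all genes were. At an unadjusted p under 0.05 there were 3 of 12 for meninges minus cheek tumors, against 17.0% of all genes, 1 each over locations and for cheek minus retro-orbital, and 0 for the other comparisons. The median difference of the 12 was -0.029 for meninges minus retro-orbital tumors, where the median of all genes was 0.13, and 0.033 for meninges minus cheek tumors, where it was 0.16.

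**Figure D2:**
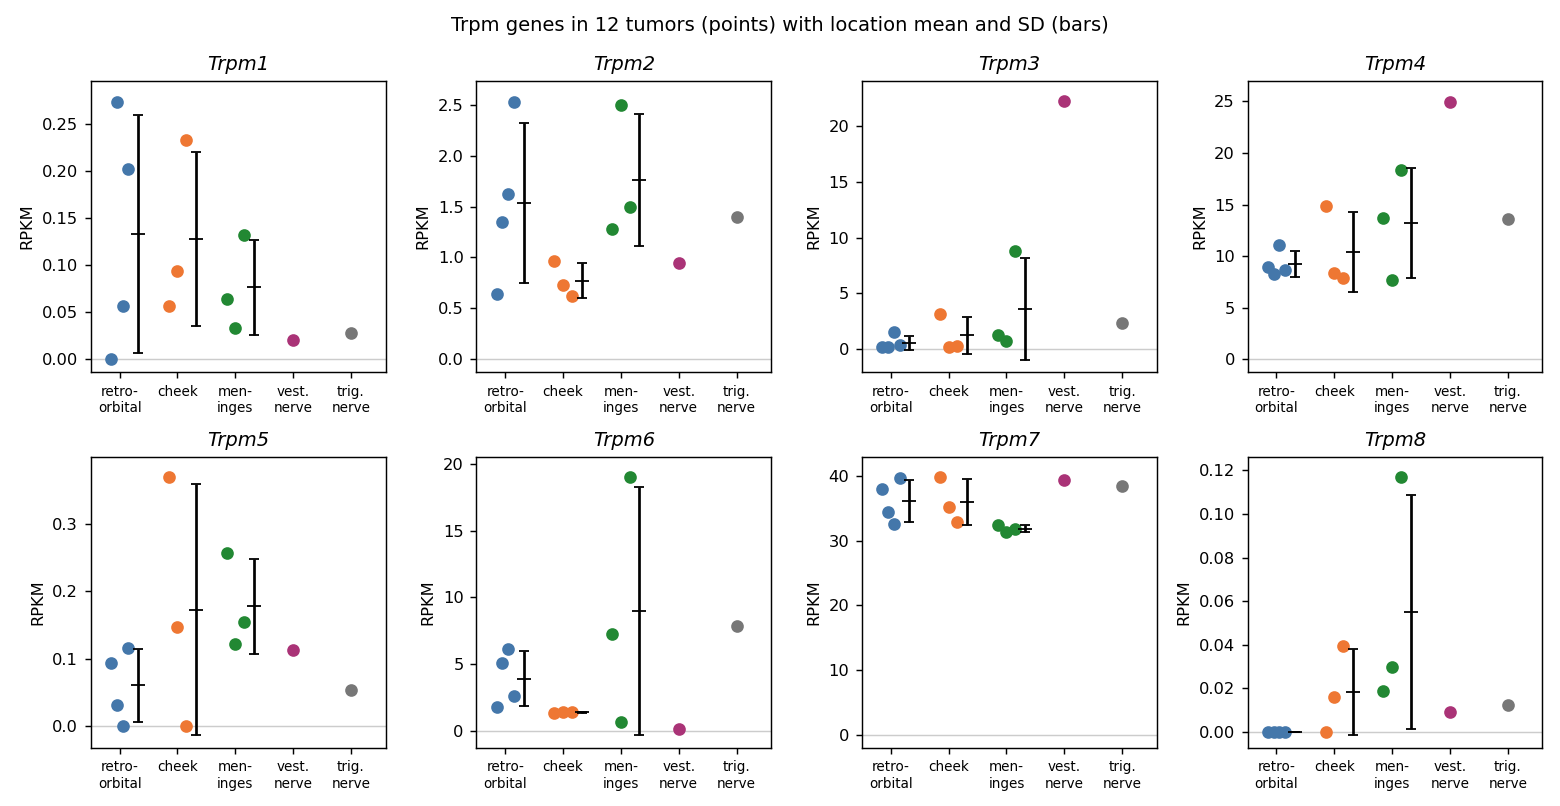
RPKM (vertical axis, linear, a separate scale for each gene) of Trpm1 to Trpm8 in the 12 tumors, grouped by location on the horizontal axis. Points are tumors, and the horizontal tick with its bar is the mean ± SD of a location with 3 or 4 tumors. Trpm7 lies between 31.3 and 39.8 throughout, while Trpm3 and Trpm6 reach their highest values of 22.3 and 19.0 in single tumors.

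Trpm4 (chr7:45302632-45333780, minus strand), the calcium-activated channel for monovalent cations, was read at 8.91, 8.22, 11.0 and 8.62 RPKM in retro-orbital tumors, at 14.8, 8.36 and 7.88 in cheek tumors, at 13.7, 7.69 and 18.3 in meninges tumors, at 25.0 in the vestibular nerve and at 13.6 in the trigeminal nerve tumor. Retro-orbital tumors lay close together at 9.19 ± 1.26 (SD, n = 4), and the ranges of all 3 replicated locations overlapped. The fragments behind these values numbered 442 to 3013. The difference of log2(RPKM + 1) was 0.42 (95% confidence interval -0.26 to 1.10) for meninges minus retro-orbital tumors, the adjusted p over locations was 0.657 (limma) and the exact permutation p was 0.497. TRPM4 can pair with the sulfonylurea receptor SUR1, the product of Abcc8. Abcc8 was low, with a median of 0.553 RPKM (0.213 to 1.57), while Abcc9 (SUR2), the highest of the 4 genes for sulfonylurea receptors and their partner channels, was at 2.73 (1.17 to 7.18) and Kcnj11 the lowest at 0.474 (0.0868 to 1.06).

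Trpm3 (chr19:22139046-22995410, plus strand), a channel opened by heat and by the steroid pregnenolone sulfate, had the largest coefficient of variation of the well-measured members. By the ratio of highest to lowest value it came after Trpm6. Its RPKM was 0.162, 0.162, 1.5 and 0.330 in retro-orbital tumors, 3.17, 0.183 and 0.283 in cheek tumors, 1.24, 0.695 and 8.84 in meninges tumors, 22.3 in the vestibular nerve and 2.36 in the trigeminal nerve tumor. The highest value was thus in the single vestibular nerve tumor, followed by meninges tumor 3, and each replicated location had 1 tumor well above its others. Fragments numbered 40 to 6789, and the highest value was 138 times the lowest. The coefficient of variation was 187%, and 97.8% of the 15043 genes varied less. The mean was 3.59 ± 4.55 RPKM (SD, n = 3) in meninges, 1.21 ± 1.70 (n = 3) in cheek and 0.538 ± 0.645 (n = 4) in retro-orbital tumors, and all 3 ranges overlapped. The difference of log2(RPKM + 1) was 1.20 (95% confidence interval -0.30 to 2.70, adjusted p = 0.596, limma) for meninges minus retro-orbital and 0.85 (-0.75 to 2.46, adjusted p = 0.556) for meninges minus cheek tumors. The adjusted p over locations was 0.533 and the exact permutation p was 0.304. Without cheek tumor 1 the difference of cheek from retro-orbital tumors went from 0.35 to -0.24.

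The microRNA gene in the intron of Trpm3 was close to unread. Mir204 had 2 fragments in meninges tumor 3 and 1 each in meninges tumor 1, the vestibular nerve and the trigeminal nerve tumor, and 0 in the other 8. Mir211 in Trpm1 had 0 in all 12. At 68 and 106 bases these genes are short, and libraries of fragmented long RNA hold little of the mature forms printed above, so 3 fragments, the upper limit for a count of 0, would be worth 0.772 to 3.34 RPKM for Mir204. No direction can be read from such numbers. Trpm3 also shares 351 and 277 exonic bases with 2 genes on the opposite strand, neither of which has a row of its own. The libraries were stranded, and whether the counting used the strand is not given in the sources used here.

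Trpm3 and Trpm4 were high in the same tumors. Over the 12 tumors, log2(RPKM + 1) of the 2 genes gave Pearson r = 0.957 (permutation p = 2e-05, adjusted p = 0.0002 over 10 pairs of members) and Spearman rho = 0.804 (p = 0.00241, adjusted p = 0.0241). Leaving out 1 tumor at a time left r between 0.926 (without the vestibular nerve tumor) and 0.977, and without the 2 tumors farthest from the median of Trpm4, the vestibular nerve tumor and meninges tumor 3, r was 0.894. The 10 pairs among Trpm2, Trpm3, Trpm4, Trpm6 and Trpm7 were formed after the data were seen. The other 9 had r between -0.374 (Trpm6 with Trpm7) and 0.251 (Trpm4 with Trpm7), and their adjusted p was at least 0.911. Of these, Trpm4 with Trpm6 went from 0.149 to 0.709 and Trpm3 with Trpm6 from 0.0359 to 0.650 when the vestibular nerve tumor was left out, and to -0.129 and -0.334 without meninges tumor 3. No location had the 6 tumors needed to give r within it.

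**Figure D3:**
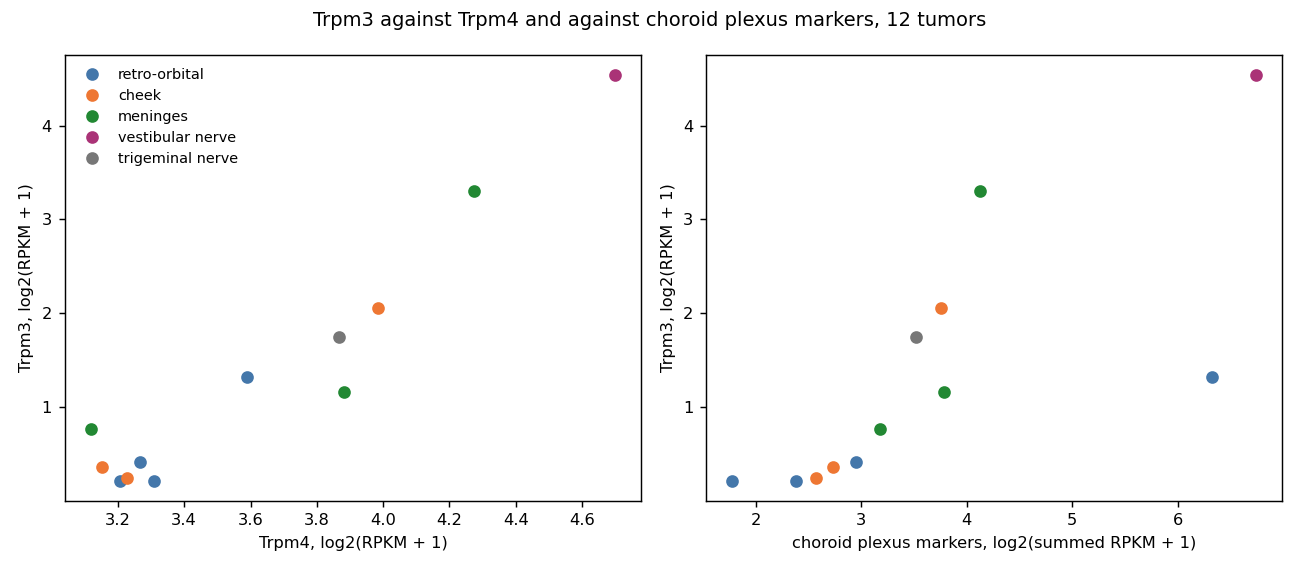
log2(RPKM + 1) of Trpm3 (vertical axes) against that of Trpm4 (left) and against log2(summed RPKM + 1) of 10 choroid plexus markers (right), 1 point per tumor, colored by location. Trpm3 rises with Trpm4 (r = 0.957), and on the right retro-orbital tumor 3 lies far from the other points.

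Because TRPM3 is abundant in the choroid plexus, the secretory epithelium of the brain ventricles, its level was set beside 10 markers of that tissue. Their summed RPKM was 2.43 to 79.2 in retro-orbital, 4.94 to 12.5 in cheek and 8.07 to 16.5 in meninges tumors, 106 in the vestibular nerve and 10.5 in the trigeminal nerve tumor. Kcnj13, a potassium channel, had the highest median of the list (3.09 RPKM) and Prlr, the prolactin receptor, the lowest (0.0865). Ttr, the transthyretin gene that defines the tissue, was picked after its values were seen. It had 96.1 RPKM and 3334 fragments in the vestibular nerve tumor, a median of 0.155 RPKM over the 12 tumors and 0 in retro-orbital tumor 1. In retro-orbital tumor 3 the sum came instead from Clic6 (54.4 RPKM), an intracellular chloride channel gene, and Otx2 (13 RPKM), a homeobox gene. Trpm3 and the summed markers gave Pearson r = 0.764 (permutation p = 0.00938, adjusted p = 0.0938 over 10 pairs of a member with a marker list) and Spearman rho = 0.916 (p = 0.00012, adjusted p = 0.00120). Without the vestibular nerve tumor r was 0.560, without retro-orbital tumor 3 it was 0.929, and without both, the tumors farthest from the marker median, it was 0.851. The part of choroid plexus cells in the level of Trpm3 was not tested. Brain neuron markers gave r = -0.296 (permutation p = 0.338) and rho = -0.462 (permutation p = 0.133) with Trpm3, and r was -0.168 without retro-orbital tumor 1. Most of their sum in retro-orbital tumors 1 and 2, where Trpm3 was lowest, came from Stmn2, picked after its values were seen. It had 150 of 168 and 74.3 of 99.1 RPKM there, and its part in this relation was not tested. Astrocyte markers gave r = 0.538 (permutation p = 0.0694) and rho = 0.713 (permutation p = 0.0113, adjusted p = 0.0565) with Trpm3. This r was 0.439 without meninges tumor 3, 0.713 without the vestibular nerve tumor and 0.415 without the 2 farthest tumors. The summed astrocyte markers were 96.9 to 386 RPKM in meninges tumors, 1.14 to 279 in retro-orbital and 1.29 to 19.3 in cheek tumors. They were 45.8 in the vestibular nerve tumor, where Trpm3 was highest, and 128 in the trigeminal nerve tumor. Their part in the level of Trpm3 was not tested.

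Trpm2 (chr10:77907722-77970563, minus strand), the ADP-ribose-gated calcium channel, was read at 0.638, 1.35, 1.63 and 2.53 RPKM in retro-orbital tumors, at 0.963, 0.727 and 0.623 in cheek tumors, at 1.28, 2.50 and 1.49 in meninges tumors, at 0.946 in the vestibular nerve and at 1.40 in the trigeminal nerve tumor. All meninges tumors were above all cheek tumors, and the retro-orbital range took in both. The values rest on 60 to 761 fragments. The difference of log2(RPKM + 1) was 0.62 (95% confidence interval -0.13 to 1.36, adjusted p = 0.363, limma) for meninges minus cheek tumors, the adjusted p over locations was 0.495 and the exact permutation p was 0.155. Trpm2 and 9 leukocyte markers with a row (of 10 listed) gave Pearson r = 0.649 (permutation p = 0.0230, adjusted p = 0.115) and Spearman rho = 0.573 (permutation p = 0.0562), with r between 0.559 and 0.760 when 1 tumor at a time was left out and 0.656 without the 2 farthest. The relation did not pass the adjustment over 10 pairs. The summed leukocyte markers were 182 to 546 RPKM in retro-orbital, 144 to 195 in cheek and 207 to 416 in meninges tumors, and 113 and 241 in the vestibular and trigeminal nerve tumors. Their part in the level of Trpm2 was not tested. All 6 genes for ADP-ribose turnover were at 1 RPKM or above in all tumors, from Cd38, which makes ADP-ribose from NAD, with a median of 9.93 RPKM (4.46 to 18.1) to Nudt9, an ADP-ribose hydrolase, with 48.0 (42.5 to 67.7).

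Trpm1, Trpm5 and Trpm8 were low, and their values rest on few fragments. Trpm1 (chr7:64153835-64269775, plus strand) had 0, 0.274, 0.0563 and 0.202 RPKM in retro-orbital tumors, 0.0568, 0.0942 and 0.233 in cheek tumors, 0.0638, 0.0334 and 0.132 in meninges tumors, 0.0206 in the vestibular nerve and 0.0276 in the trigeminal nerve tumor, from 0 to 57 fragments. The ranges of the locations overlapped, and the exact permutation p was 0.725. Its level and the summed RPKM of 8 melanocyte markers gave r = 0.429 (permutation p = 0.166), which was 0.716 without cheek tumor 3, 0.222 without retro-orbital tumor 2 and -0.168 without the 2 farthest tumors. With 6 markers of the retinal pigment epithelium r was 0.138 (permutation p = 0.666), between -0.0730 (without retro-orbital tumor 2) and 0.407 (without cheek tumor 3) on leaving out 1 tumor, and 0.565 without the 2 farthest. Of the 9 genes of the ON bipolar cell cascade, Grm6, the glutamate receptor that controls TRPM1 in the retina, had no fragment in 7 tumors and did not exceed 0.220 RPKM, and Gnb5, a G protein subunit found in many cells, was highest with a median of 4.58.

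Trpm5 (chr7:143069153-143094642, minus strand), known from taste cells, had 0.0927, 0.0310, 0 and 0.116 RPKM in retro-orbital tumors, 0.370, 0.147 and 0 in cheek tumors, 0.257, 0.121 and 0.154 in meninges tumors, 0.112 in the vestibular nerve and 0.0539 in the trigeminal nerve tumor, from 0 to 46 fragments. The meninges tumors lay above the retro-orbital tumors, the nearest pair at 0.121 and 0.116, and the exact permutation p over locations was 0.324. Trpm5 shares 220 exonic bases with Tssc4 on the opposite strand, so its few fragments are uncertain if the strand was not used in counting. Among 7 genes of taste transduction, Itpr3, a calcium release channel found in many cells, had the highest median of 16.9 RPKM and the sweet receptor subunit Tas1r2 the lowest of 0.00796.

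Trpm8 (chr1:88277661-88389293, plus strand), the cold and menthol receptor, had 0 fragments in all 4 retro-orbital tumors and in cheek tumor 1. It had 2 fragments in each of cheek tumors 2 and 3, 2, 3 and 8 in the meninges tumors, and 1 in each of the nerve tumors. The highest value, 0.117 RPKM, was in meninges tumor 3, and only meninges tumors 2 and 3 reached 3 fragments, which were worth 0.0137 to 0.0591 RPKM depending on the tumor. Trpm8 shares 388 exonic bases with a gene on the opposite strand that has no row of its own. Its few fragments are uncertain if the strand was not used in counting. The exact permutation p was 0.0619. It was 0.0381 with ranks, 0.0317 without meninges tumor 1 and 0.0437 without meninges tumor 2, and no p here was adjusted for the 8 members. Its relation to 10 sensory neuron markers was weak (r = 0.122, permutation p = 0.783). Scn10a, a sodium channel of pain-sensing neurons, had the lowest median of these, at 0 in 7 tumors. Calca had the highest, 2.34 RPKM (0.610 to 41.9, highest in the trigeminal nerve tumor). The summed markers were 1.78 to 32.1 RPKM in retro-orbital, 4.72 to 7.66 in cheek and 8.80 to 77.0 in meninges tumors. They were 55.0 in the vestibular nerve and 51.9 in the trigeminal nerve tumor.

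Across all genes, the comparisons of location called few. Of the 14745 genes tested with limma, 6 (0.0407%) passed an adjusted p of 0.05 over the 3 locations, 4 (0.0271%) for cheek minus retro-orbital, 3 (0.0203%) for meninges minus retro-orbital and 7 (0.0475%) for meninges minus cheek tumors. With all 12 tumors, 4 of 15043 (0.0266%) passed for meninges minus the other locations. Of the 8 members, 5 passed the filter on low values and were tested, and 0 of the 5 were called in any of these comparisons. At an unadjusted p under 0.05 the count was also 0 of 5, against 2110 genes (14.3%) over locations and 2501 (17.0%) for meninges minus cheek. The smallest unadjusted p of a member was 0.0889, of Trpm6 for meninges minus cheek tumors. The intervals leave room for large differences, up to 3.16 on the log2 scale for Trpm6 and 2.70 for Trpm3, but for Trpm7 their bounds lay between -0.50 and 0.30. All genes together were shifted by a median of 0.13 for meninges minus retro-orbital, 0.16 for meninges minus cheek and 0.12 for meninges minus the other locations. Relative to these shifts, Trpm7 was at -0.31, -0.33 and -0.31, Trpm3 at 1.07, 0.69 and 0.39, Trpm6 at 0.37, 1.29 and 0.82, Trpm4 at 0.28, 0.14 and 0.054, and Trpm2 at 0.018, 0.46 and 0.23. The median of the 5 members before this was 0.42, 0.62 and 0.35, and -0.0086 for cheek minus retro-orbital, where that of all genes was -0.015.

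**Figure D4:**
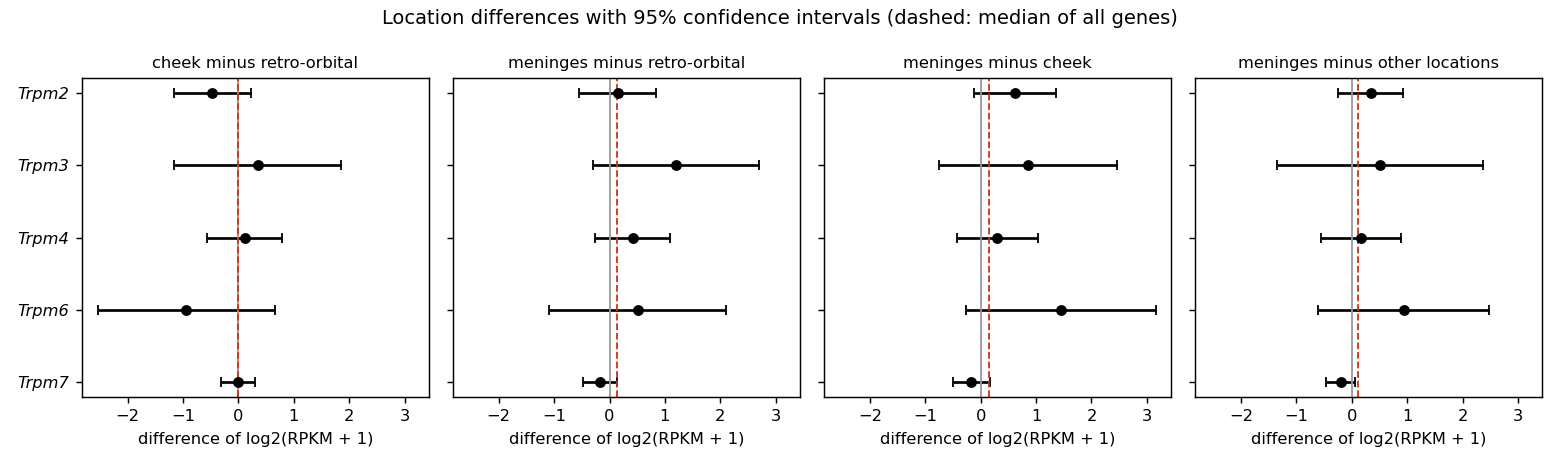
Differences of mean log2(RPKM + 1) between locations (horizontal axis) for the 5 tested members, 1 panel per comparison, with 95% confidence intervals from limma as bars. The solid line is 0 and the dashed line the median of all genes, and each of the 20 intervals includes 0.

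The ranges of 2 locations were apart in 1 of the 5 tested members for cheek and retro-orbital tumors (Trpm6), against 11.1% of all tested genes. For meninges and retro-orbital tumors they were apart in 1 (Trpm7), against 9.23%, and for meninges and cheek tumors in 2 (Trpm2 and Trpm7), against 28.7%. For the 5 tested members, counts of 1 or 2 are near these shares. Trpm5 and Trpm8, which did not pass the filter, were apart for meninges and retro-orbital tumors too, which made 3 of all 8 members. The shares cover only genes that passed the filter, so there is none to set beside that count. Both genes rest on few fragments, 0 to 46 for Trpm5 and 0 to 8 for Trpm8.

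The genes most like each member over the 12 tumors were taken from 15021 genes, those at 1 RPKM or above in at least 3 tumors without the rows that carry a date as symbol, by Pearson r of log2(RPKM + 1). They are given as a description. The genes nearest to Trpm3 were BC030500 (r = 0.973), Fut2 (0.961), a fucosyltransferase gene, and Trpm4 itself (0.957). Trpm4 was nearest to 6430571L13Rik (0.967), Fut2 (0.965) and D030045P18Rik (0.963). All of these peaked in the vestibular nerve tumor, where Fut2 stood at 54.6 RPKM against a median of 1.5. Trpm6 was nearest to Chst1 (0.899), a sulfotransferase gene, Ntf3 (0.877), which encodes neurotrophin 3, and Nox3 (0.858), an NADPH oxidase gene, all highest in meninges tumor 3. Trpm2 was nearest to Mmp17 (0.959), a membrane-bound metalloproteinase gene, Rarres1 (0.943) and the DNA repair nuclease gene Dclre1c (0.938). Trpm7 was nearest to Trmt10c (0.843), a mitochondrial tRNA methyltransferase gene, Wdr73 (0.799) and the proteasome subunit gene Psmd8 (0.792).

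Of the 20 other TRP channel genes, 9 were at 1 RPKM or above in at least 3 tumors, 4 in all 12 (Mcoln1, Pkd2, Trpv2 and Pkd2l2), and 8 stayed below 1 RPKM everywhere. Pkd2, the polycystin channel of cilia and the endoplasmic reticulum, had the highest median of the 20 with 26.0 RPKM (17.0 to 39.1), below that of Trpm7, and Trpc2 was listed at 0 in every tumor. None of the 9 tested was called (limma; 0.0407% of all genes were called over locations). At an unadjusted p under 0.05 there was 1 of 9 over locations, against 14.3% of all genes, and 2 of 9 for cheek minus retro-orbital tumors, against 12%. Over all 7 gene lists beside the members, 37 of 61 genes were tested and 0 called in any comparison (limma), with 6 of 37 at an unadjusted p under 0.05 over locations, where 14.3% of all genes were, and a smallest adjusted p of 0.143 for meninges minus cheek. The median difference of the 9 TRP channel genes for meninges minus retro-orbital tumors was -0.15, where that of all genes was 0.13, and for meninges minus cheek tumors it was 0.33, where that of all genes was 0.16.

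**Figure D5:**
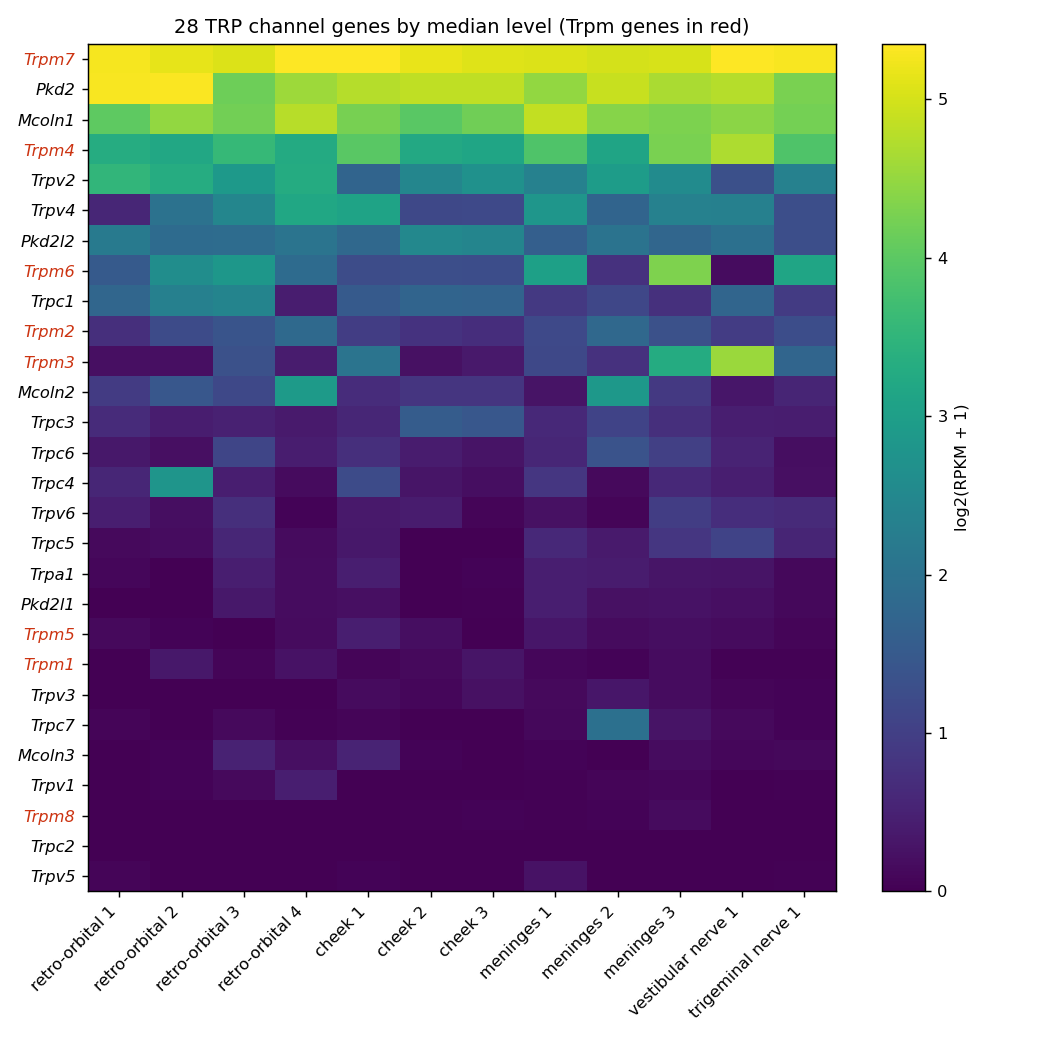
log2(RPKM + 1) (color) of the 28 TRP channel genes (rows, by falling median, Trpm genes in red) in the 12 tumors (columns). Trpm7 heads the list with a median of 34.8 RPKM, and Trpc2 is at 0 throughout.

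RefSeq start sites were at hand for 7 of the 8 members, all but Trpm4, with 9 sites in all, and the letters CG were counted in the 300 bases around each (250 before and 50 after the start, GRCm38.p6). The dinucleotide is the same on both strands. The Trpm7 promoter (chr2:126876212-126876511) held 35, more than 93.0% of the 32851 promoters, of which the median was 7 and 94.6% held at least 1. Trpm3 held 21 and 10 at its 2 starts, Trpm2 15, Trpm6 9, Trpm1 2 and 6, Trpm5 5 and Trpm8 (chr1:88306485-88306784) 1. Among Trpm6, Trpm2 and Trpm3 the order of these counts was not that of the median RPKM.

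The remaining relations of members with marker lists did not pass the adjustment and moved with single tumors. Trpm4 and 5 endothelial markers gave r = -0.430 (permutation p = 0.159), which was -0.742 without retro-orbital tumor 2, -0.0851 without the vestibular nerve tumor and -0.486 without both, the 2 farthest. Trpm6 and 6 Schwann cell markers gave r = 0.461 (permutation p = 0.131), which ranged from 0.239 to 0.658 on leaving out 1 tumor and was -0.0162 without the 2 farthest. Trpm7 with leukocyte markers gave r = -0.275 (permutation p = 0.383), which ranged from -0.510 to -0.119 and was -0.634 without the 2 farthest. Their adjusted p over 10 pairs was 0.276, 0.276 and 0.479. The summed Schwann cell markers were 32.3 to 63.7 RPKM in meninges tumors, above the 8.45 to 24.9 of retro-orbital and the 5.10 to 9.36 of cheek tumors, and their part in Trpm6 was not tested.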

How the data were processed

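Frozen tumors were extracted with RiboPure, and stranded TruSeq libraries were made after RiboZero treatment and sequenced as a single pool. STAR (mm10) was the authors' aligner and HTSeq, on RefSeq genes, their counter of fragments, for reads with a unique position only. They deposited 1 RPKM value per gene and tumor. The gene length and read total behind the RPKM and the strand setting are not given in the sources used here. The submitters' notes also name edgeR and limma, with no role.

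Groups were the labelled locations. Fragment totals were recovered from RPKM steps with GENCODE M21 lengths, taking for each gene the shortest length at which all 12 values were whole fragments (within 0.001), so true numbers could be a multiple. Floors of 3 fragments cover counting error only, while the confidence intervals come from limma and rest on the spread between tumors. Tests ran on log2(RPKM + 1), which understates changes of low genes, with limma 3.58.1 (R 4.3.3; trended, robust prior variance; Benjamini-Hochberg at 0.05) on genes at 1 RPKM or above in at least 3 fitted tumors. Exact permutations ran over all 4200 labellings of 10 tumors (smallest possible p 0.000238), and correlations used 100000 resamples. As a check of the code only, the limma step recovered changes planted in artificial data, and the other steps were checked likewise. Whether differences as small as those of the members would be called at the spread of these tumors was not tested. Of the gene rows, 27 carried a date as symbol and were never named. p-values measure spread between tumors, whose independence is not stated.

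Named were the 8 members, Smarcb1, the 3 genes most alike to each well-measured member, and any list gene called. The highest and lowest by median were named for the gene lists beside the members and for choroid plexus and sensory neuron markers. For the other marker lists they were not. Exceptions are marked, are the genes at 1 RPKM in all tumors, or are Abcc8, Clic6, Otx2 and Tssc4. Members, lists and tests were chosen with earlier results of these data known. Alternatives varied the pseudocount, filter, normalization, prior variance, title part as random effect and tumors fitted. Positions are from GENCODE M21, promoters and microRNAs from RefSeq, both GRCm38. Other steps ran in Python 3.11.15 (pandas 2.3.3, scipy 1.17.1, numpy 2.4.6), with matplotlib 3.10.9 for plots.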

Additional observations from a re-analysis of the deposited data

Results flagged for a closer look

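Trpm3 in the retro-orbital tumors held a value far from the others. Retro-orbital tumor 3, at 1.5 RPKM (918 fragments), was separated from the next tumor, at 0.330 RPKM, by 0.874 of the range of the 4 tumors, above Dixon's critical value at the 95% level. Of the 8 members, 7 varied among the 4 retro-orbital tumors and could be examined, and 1 was found. Chance gives about 1 in 20 for each member examined, if its values are normally distributed, and no correction was made for the 7. The ratio was taken on RPKM, not on the log scale of the other tests. Retro-orbital tumor 3 was also the tumor scaled to the most fragments, 57128422. Its summed choroid plexus and astrocyte markers, 79.2 and 279 RPKM, were the highest of the 4 retro-orbital tumors. Its title shares its first part with the trigeminal nerve tumor, in which Trpm3 was at 2.36 RPKM.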

How the results depend on the processing

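No paired analysis was possible because the labels give no replicate numbers, and of the shared title parts only 1 joins tumors of 2 replicated locations (cheek tumor 1 with meninges tumor 1). The title part was used as a random effect instead. The 5 tested members gave 25 results in the fits, recomputed 430 times in all. Of these values 411 kept their direction and side of the threshold, 3 passed it (given above, all with the shared title part as a random effect) and 16 changed sign, all of them uncalled. Changed signs were Trpm2 for meninges minus retro-orbital with quantile normalization (-0.16), without retro-orbital tumor 1 (-0.043) and without meninges tumor 2 (-0.035), Trpm7 for cheek minus retro-orbital with the random effect (0.054) and on leaving out retro-orbital tumor 1, retro-orbital tumor 4, cheek tumor 2 or cheek tumor 3 (0.016, 0.036, 0.0040 and 0.052), Trpm3 and Trpm4 for meninges minus cheek with the random effect (-0.67 and -0.055), Trpm3 for meninges minus other locations with it (-0.077), Trpm3 and Trpm4 for cheek minus retro-orbital without cheek tumor 1 (-0.24 and -0.15), and, without meninges tumor 3, Trpm6 for meninges minus retro-orbital (-0.30) and Trpm3 and Trpm4 for meninges minus other locations (-0.27 and -0.089). The highest values on leaving out 1 tumor, for the results that changed sign so, were 0.33 for Trpm2, 1.48 for Trpm6, 0.67 and 0.26 for Trpm3 and Trpm4 in cheek minus retro-orbital and 0.995 and 0.49 for them in meninges minus other locations, and the lowest for Trpm7 was -0.082. With a pseudocount of 0.1, r changed sign for Trpm2 with Trpm3 (0.111), Trpm3 with Trpm6 (-0.0670) and Trpm4 with Trpm6 (-0.0168), and Trpm3 with choroid plexus markers was 0.799 and passed.

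Counts of genes called, in the order locations, cheek minus retro-orbital, meninges minus retro-orbital, meninges minus cheek and meninges minus others, were 6, 4, 3, 7 and 4. A pseudocount of 0.1 gave 2 and 2 for the last 2. No filter gave 10, 2, 7, 18 and 20, a filter at 0.1 RPKM 15, 3, 9, 17 and 14, constant prior variance 19, 3, 6, 22 and 9, and quantile normalization 13 and 2 for the last 2. The random effect gave 2802, 2, 3, 4243 and 134. Leaving out 1 tumor gave 0 to 198, 0 to 147, 0 to 41, 0 to 527 and 1 to 18, with the highest counts without cheek tumor 1 (198, 147 and 527) and without retro-orbital tumor 3 (41 and 18), and 0 over locations without cheek tumor 2, cheek tumor 3 or meninges tumor 1. The cause was not tested. Depth limits Trpm8 and both microRNA genes.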
